A study of Mus musculus with 8 samples.

Results

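The genes of cholesterol and fatty acid synthesis were examined in muscle stem cells (MuSCs), the Pax7-expressing satellite cells of skeletal muscle, after mice had eaten a diet without vitamin A (VA). The set holds 30 genes: 18 enzymes of the sterol pathway, 5 regulators of the sterol-sensing transcription factors, the sterol carrier Stard4, and 6 enzymes of fatty acid synthesis. It is a list of symbols grouped by role in the pathway, and its rule uses no measured value. The list, like the pathway lists below, was nevertheless chosen with earlier results of these data known. Shares of listed genes called are therefore description only. The members are 30 of the 36047 genes in the count tables and 30 of the 17997 that passed the expression filter. All mice were Pax7CreERT2-Rosa26nTnG males, 5 to 6 months old, in which tamoxifen turns on a nuclear GFP in cells whose Pax7 promoter drives the Cre, and GFP-positive cells were sorted from gastrocnemius and quadriceps. For 8 weeks, 3 mice received a custom VA-free diet and 2 mice stayed on normal chow as the control diet. The VA-free mice gave 4 libraries and the control mice 4. The letters A and B mark portions of the same mouse's RNA, which are technical replicates. Not every portion met the authors' criteria for RNA quality and amount. VA-free mouse 3 and both control mice have both libraries here, and VA-free mice 1 and 2 have 1 each. The replicate is therefore the mouse (n = 3 and n = 2). The composition of the custom diet and of the chow apart from vitamin A is not given in the sources used here. Differences in other components cannot be told apart from the lack of vitamin A.

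Cells build cholesterol from acetyl-CoA through mevalonate, isoprenoid pyrophosphates, squalene and lanosterol, and they build fatty acids from the same acetyl-CoA. The transcription factors SREBP-2 and SREBP-1, products of Srebf2 and Srebf1, drive the genes of both pathways. When sterols are scarce, SCAP carries the SREBP precursors from the endoplasmic reticulum to the Golgi for cleavage, and when sterols are plentiful INSIG proteins hold SCAP back. Genes of the sterol branch are mainly SREBP-2 targets and genes of the fatty acid branch mainly SREBP-1c targets, so the families often move as groups.

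On the VA-free diet the sterol enzymes were lower, and a part of the fatty acid genes and of the SREBP machinery was higher. In the quasi-likelihood test of edgeR, with p-values adjusted over all genes by Benjamini and Hochberg, 13 members fell, 4 rose and 13 did not pass the threshold of 0.05. Of all genes tested, 22.5% were called lower and 18.9% higher, against 43.3% and 13.3% of the members. With TPM (pseudocount 1) in place of counts, 8 of the 30 members rose and 5 fell, while 32.2% of all genes were called higher and 14.7% lower. By that measure 14 of the 18 sterol enzymes were below 0 and 4 of them were called. The falls comprised 12 of the 18 sterol enzymes and Stard4, and the rises were Srebf2, Scap, Acaca and Fasn. All 18 sterol enzymes had a log2 fold change (VA-free over control) below 0, with a median of -0.71, while the median was -0.29 over the 30 members and 0.00 over all genes tested. In counts scaled to library size (CPM, with TMM factors), the ranges of the VA-free and control mice were apart for 21 members, a pattern that 63.3% of all genes tested also showed. Under all 25 alternative treatments of the data the falls of Fdps, Pmvk, Fdft1, Msmo1 and Stard4 and the rise of Fasn kept their call, and the other 11 called members lost theirs under at least 1.

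**Figure D1:**
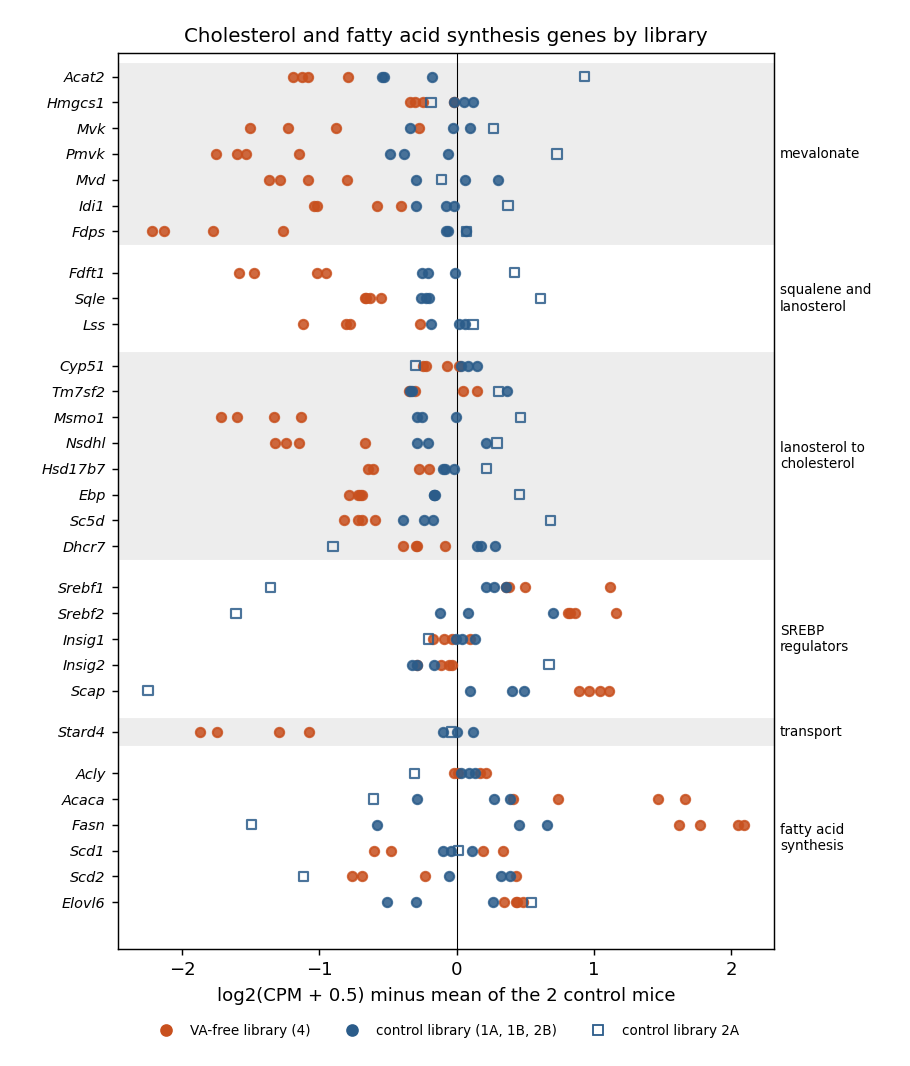
Level of each member in the 8 libraries, as log2(CPM + 0.5) minus the mean of the 2 control mice (x axis), grouped by pathway segment. The VA-free libraries lie to the left of 0 for most sterol enzymes, with medians from -0.79 to -1.29 over the mevalonate segment, and to the right for Srebf2, Scap, Acaca and Fasn. The open squares mark control library 2A, which stands apart for many members.

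Several measures of the libraries moved with the diet or with single members. Total estimated counts were 44831232 to 88650428 per library, and the members rest on 163 to 37377 counts per library. Counting error was not compared with the spread between mice for each member. Over all genes the log2 fold change rose by 0.35 for each doubling of mean transcript length, and the members that rose are long. The technical replicates of control mouse 2 also differed more than those of other mice: the median absolute log2 difference over the members was 0.53 between control 2A and 2B, 0.20 between control 1A and 1B and 0.09 between VA-free 3A and 3B. Scap differed most between control 2A and 2B, by 2.74 in log2. Of the 15 members longer than the members' median 12 were lower in 2A than in 2B, and of the 15 shorter members 12 were higher in 2A. Values without 2A are given below beside the results that it moved most.

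The markers of MuSCs and of other cells in muscle differed between the diets as well. The counts of markers called stand beside 18.9% of all genes called higher and 22.5% called lower. Pax7 was at 132 ± 28.3 CPM (SD, n = 3) in VA-free mice and 78.1 ± 2.57 CPM (n = 2) in control mice, and Myf5 at 190 ± 13.9 and 74.6 ± 7.98 CPM, so the labelled cell type is present in both groups. Of 10 MuSC markers 9 rose, and their summed level was 6080 to 7000 CPM per VA-free library and 2480 to 4100 CPM per control library. Chodl and Vcam1 were the most abundant of these. All 10 endothelial markers fell, with sums of 240 to 322 and 1190 to 2810 CPM, and with Pecam1 and Tek, a pair of endothelial surface receptors, highest in mean level over all mice (465 and 208 CPM in control mice, 38.1 and 132 CPM in VA-free mice). Of the Schwann cell markers 10 of 11 fell (873 to 968 and 1440 to 1800 CPM), with Pmp22 and Egr2 the most abundant, and of the tenocyte markers 6 of 8 (317 to 386 and 973 to 1620 CPM), with Fmod (388 CPM in control and 11.6 CPM in VA-free mice) and Tppp3 (379 and 300 CPM) highest over all mice. For pericytes and smooth muscle 5 of 9 markers fell and 1, Notch3, rose (1730 to 2020 and 2740 to 3350 CPM, with Acta2 and Notch3 the most abundant over all mice). For macrophages 3 of 10 fell, 30% and so near the share of all genes (23.3 to 141 and 175 to 886 CPM, with Lyz2 and C1qb highest over all mice). For fibro-adipogenic progenitors 6 of 10 fell and 1, Col3a1, rose, and the sums of 17000 to 19400 and 9300 to 15400 CPM were carried by Col3a1 and Gsn. Myofiber markers summed to 334 to 430 and 463 to 561 CPM with 5 of 10 lower, led by Acta1 and Atp2a1. Of the adipocyte markers, 1 of the 4 tested, Aqp7, fell (25%, also near that share), and the sums of 208 to 241 and 215 to 341 CPM were mostly Lpl. Lep was listed at 0 in all 8 libraries, Adrb3 at 0 in all 4 control libraries, and Adipoq, Retn, Cidec, Pck1, Cfd, Kera, Mrc1 and Fcgr1 were at 0 in some libraries. In bulk RNA, fewer cells of a type and less RNA per cell cannot be told apart, and the part of these other cells in the values of the members was not tested.

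**Figure D2:**
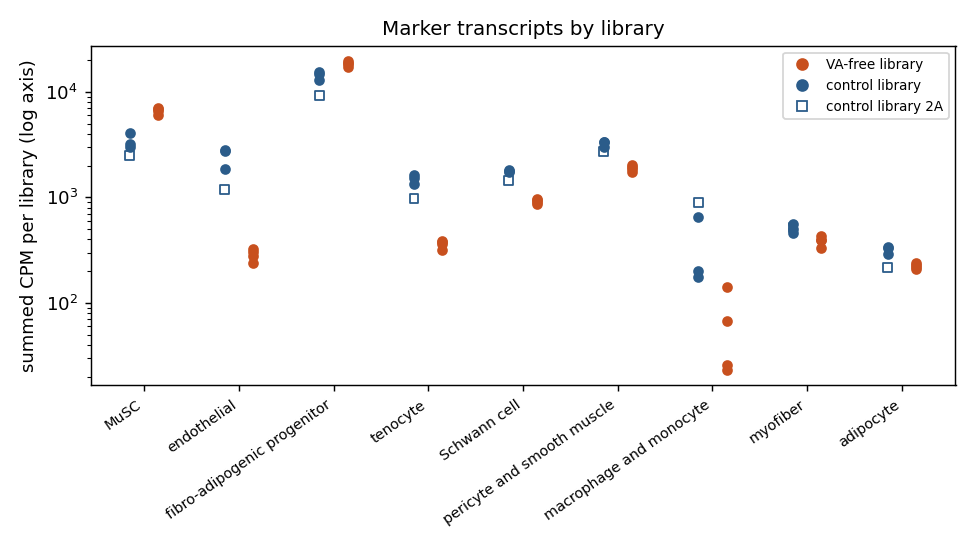
Summed CPM of each cell type's marker genes in every library, on a log axis. VA-free libraries lie above control libraries for MuSC markers (6080 to 7000 against 2480 to 4100 CPM) and below them for endothelial markers (240 to 322 against 1190 to 2810 CPM).

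The mevalonate segment turns acetyl-CoA into farnesyl pyrophosphate, and 5 of its 7 enzymes fell. The largest change was that of Fdps (ENSMUSG00000059743.12, GRCm38 chr3:89093588-89101959, minus strand), which encodes farnesyl diphosphate synthase, the enzyme at the branch point to sterols and prenylated proteins. Fdps stood at 68.5, 95.7 and 51.3 CPM in VA-free mice 1 to 3 and at 239 and 223 CPM in control mice 1 and 2. Even the highest VA-free mouse was well below both controls, and the 4 control libraries, 2A included, lay close together (218 to 242 CPM). The log2 fold change was -1.68 ± 0.24 (SE), a 3.22-fold lower level (adjusted p = 0.0019). Without control library 2A it was -1.68, and with the length trend of all genes removed -1.09.

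Pmvk, phosphomevalonate kinase (ENSMUSG00000027952.16, chr3:89454541-89469013, plus strand), was measured at 12.5, 17.0 and 12.0 CPM in the VA-free mice and at 33.2 and 43.9 CPM in the controls. The groups did not overlap in any library, although control 2A (63.7 CPM) lay far above the other control libraries (27.1 to 36.5 CPM). Its log2 fold change was -1.48 ± 0.21 (adjusted p = 0.00176), -1.18 without library 2A and -0.83 with the length trend removed. Mvd, mevalonate diphosphate decarboxylase, was scarce, at 7.59, 9.17 and 6.29 CPM against 15.5 and 17.1 CPM, and fell by 1.09 ± 0.21 on the log2 scale (adjusted p = 0.00607). Library 2A was inside the range of the other control libraries for Mvd, whose log2 fold change was -0.74 with the length trend removed and -0.61, not called, by TPM (pseudocount 1).

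Acat2, the thiolase that forms acetoacetyl-CoA, and Idi1, the isomerase of isopentenyl pyrophosphate, were the other members of the segment that fell. Acat2 was at 29.0, 36.1 and 28.6 CPM in the VA-free mice and at 51.2 and 76.8 CPM in the controls (log2 fold change -1.03 ± 0.20, adjusted p = 0.00629). Much of its control mean came from library 2A with 120 CPM, while the other control libraries were at 42.9 to 55.2 CPM, and the log2 fold change without 2A was -0.60. It was -0.47 with TPM (pseudocount 1) and -0.23 with the length trend removed and 2A left out, neither called. Idi1 was at 117, 129 and 84.5 CPM against 156 and 187 CPM (-0.64 ± 0.19, adjusted p = 0.0342), a call lost under 9 alternatives (values of -0.77 to -0.19 over all 25), among them those without VA-free mouse 1 (-0.68) or 3 (-0.48), control mouse 2 (-0.51), control 1A (-0.58) or control 2B (-0.73). Mvk, mevalonate kinase, had a similar difference of -0.78 ± 0.31 but a wide spread among the VA-free mice (8.45 to 18.4 CPM), and missed the threshold (adjusted p = 0.082), which it passed under 7 of the 25 alternatives, DESeq2 and limma-voom among them. Hmgcs1, HMG-CoA synthase, makes the precursor of mevalonate, and its difference in CPM did not pass the test (-0.18 ± 0.14, adjusted p = 0.347).

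Squalene synthase, squalene epoxidase and lanosterol synthase commit the pathway to sterols, and all 3 genes fell. Fdft1, squalene synthase (ENSMUSG00000021273.10, chr14:63145150-63179578, minus strand), was at 73.3, 75.3 and 50.9 CPM in the VA-free mice and at 139 and 153 CPM in the controls. The groups stayed apart in every library, and its log2 fold change was -1.13 ± 0.18 (adjusted p = 0.00301), or -1.0 both without library 2A and with the length trend removed. Exons of Fdft1 share 774 bases with Ctsb on the opposite strand, a gene with a mean of 57940 counts per library against 5565 for Fdft1, and since the libraries do not mark the strand, reads of the shared stretch are assigned to either gene only by estimate.

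Sqle, the epoxidase and a control point of the pathway, showed little spread on the VA-free diet (111, 118 and 111 CPM) and stood at 154 and 194 CPM in the controls. It fell by 0.61 ± 0.13 on the log2 scale (adjusted p = 0.00903). Library 2A with 264 CPM lay far above the other control libraries (144 to 150 CPM). Without 2A the log2 fold change was -0.39 (adjusted p = 0.0178), whereas without 2B it was -0.82 and not called (adjusted p = 0.0525). By TPM, at either pseudocount, Sqle was at -0.16 and not called. Lss, lanosterol synthase, was at 34.4, 49.1 and 31.1 CPM against 58.3 and 59.8 CPM (-0.63 ± 0.20, adjusted p = 0.0425). This call, the closest to the threshold among the called members, was lost under 10 alternatives. Among them were those without VA-free mouse 1 (-0.56) or 3 (-0.50), either control mouse (-0.65 and -0.62), control 1B (-0.55) or control 2B (-0.64).

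Between lanosterol and cholesterol, 4 of 8 enzymes fell and the other 4 did not pass the test, all with a log2 fold change below 0. Msmo1, the methylsterol monooxygenase that removes the C4 methyl groups (ENSMUSG00000031604.10, chr8:64718139-64733792, minus strand), was at 63.5, 54.3 and 43.7 CPM in the VA-free mice and 129 and 145 CPM in the controls. The highest VA-free library (62.0 CPM) was below the lowest control library (112 CPM). Its log2 fold change was -1.35 ± 0.17 (adjusted p = 0.00111), -1.19 without library 2A and -0.96 with the length trend removed. Nsdhl, the dehydrogenase that acts after Msmo1 in the same demethylation, was at 14.3, 19.8 and 12.9 CPM against 27.5 and 36.6 CPM, which gave -1.03 ± 0.23 (adjusted p = 0.0104), and -0.57 by TPM (pseudocount 1), not called. The transcript levels of both genes were thus lower by counts. The gene of the third enzyme of C4 demethylation, Hsd17b7, a 3-ketosteroid reductase, had -0.34 ± 0.15 and did not pass (adjusted p = 0.115).

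Ebp, the sterol isomerase, and Sc5d, the desaturase that follows it, fell by 0.73 ± 0.12 and 0.69 ± 0.15 on the log2 scale (adjusted p = 0.00338 and 0.0107). Ebp was steady within each diet apart from 1 library: 33.8 to 36.2 CPM in the VA-free libraries, 52.1 to 52.6 CPM in control 1A, 1B and 2B and 80.6 CPM in control 2A. Without 2A the log2 fold changes were -0.59 for Ebp and -0.44 for Sc5d, both still called, and without 2B Sc5d was at -0.91 and not called. With the length trend removed they were -0.14 and -0.35, and with 2A also left out -0.04 and -0.10, and neither was called.

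Cyp51, lanosterol demethylase, Tm7sf2, a sterol reductase, and Dhcr7, the last reductase of this route, gave no call. Cyp51 was at 157 to 166 CPM in VA-free libraries 1B and 2A and 139 to 141 CPM in 3A and 3B, which falls within the control range of 134 to 183 CPM (-0.09 ± 0.14, adjusted p = 0.671). Dhcr7 had -0.24 ± 0.17 with all libraries (adjusted p = 0.307), but control 2A stood at 16.5 CPM and the other controls at 34.7 to 38.0 CPM, and without 2A the log2 fold change was -0.48 (adjusted p = 0.023). Tm7sf2 was the scarcest member at 3.68 to 6.36 CPM (-0.15 ± 0.29, adjusted p = 0.723). The signs of Cyp51, Tm7sf2 and Dhcr7 turned under other treatments: with TPM (pseudocount 1) in place of counts, they were 0.37, 0.17 and 0.34, and for Tm7sf2 and Dhcr7 0.35 and 0.14 with the length trend removed.

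Stard4, a soluble carrier that moves cholesterol between membranes (ENSMUSG00000024378.9), fell with the sterol enzymes. It was at 37.2, 31.3 and 22.0 CPM in the VA-free mice and at 80.9 and 73.8 CPM in the controls. Its control libraries agreed closely, 72.0 to 83.7 CPM with 2A inside that range, and no VA-free library exceeded 36.4 CPM. The log2 fold change of -1.36 ± 0.21 (adjusted p = 0.00274) was -1.39 without library 2A and -1.25 with the length trend removed.

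**Figure D3:**
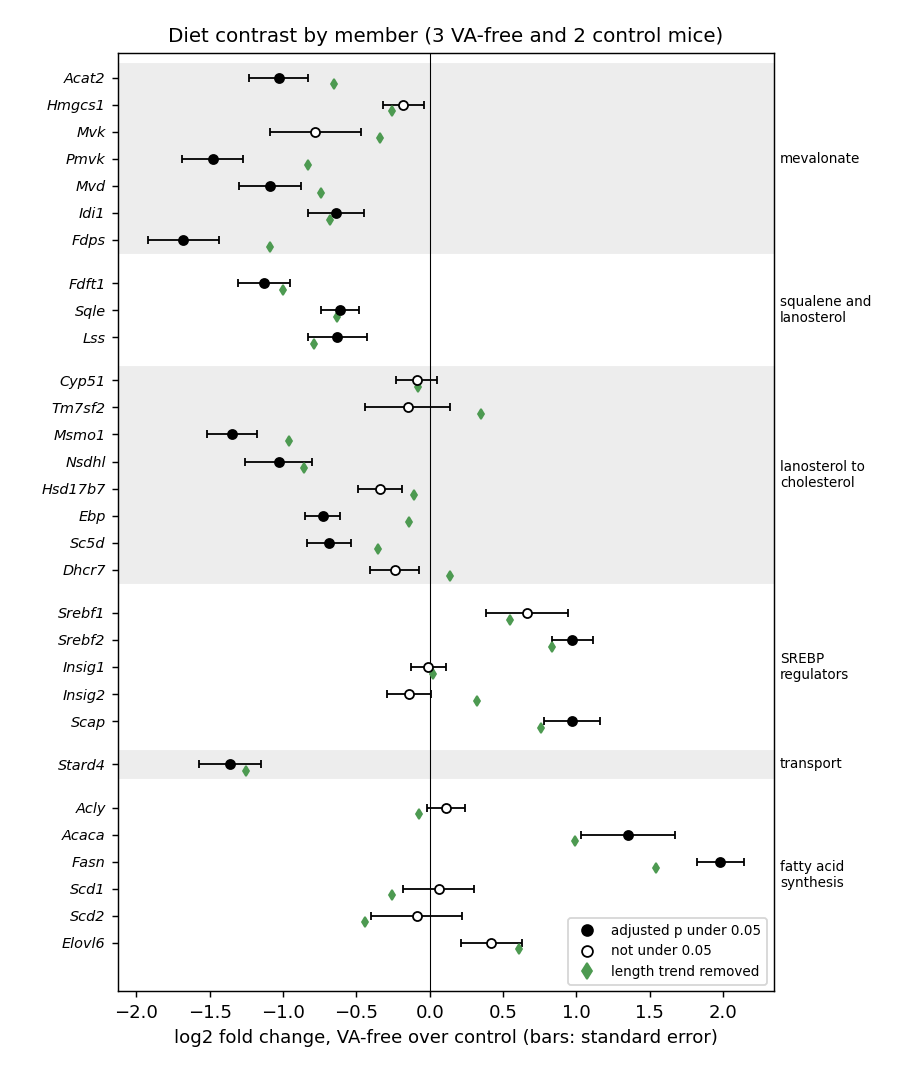
Log2 fold change of each member, VA-free over control, with its standard error, from 3 and 2 mice (filled circles, adjusted p under 0.05). Green diamonds show the value with the length trend of all genes removed, which for Fdps is -1.09 against -1.68 and for Fasn 1.54 against 1.98.

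The genes that control the SREBPs went the other way or showed no call. Srebf2, the gene of SREBP-2 (ENSMUSG00000022463.8, chr15:82147181-82205379, plus strand), was at 323, 406, 331 and 319 CPM in VA-free libraries 1B, 2A, 3A and 3B. In control libraries 1A, 1B, 2A and 2B it was at 167, 192, 59.2 and 296 CPM, so that the technical replicates of control mouse 2 lay on both sides of those of control mouse 1. By mouse the levels were 330, 407 and 328 CPM against 185 and 178 CPM, and Srebf2 rose by 0.97 ± 0.14 on the log2 scale (adjusted p = 0.002). Without library 2A the log2 fold change was 0.56 and without 2B 1.56, and neither was called (adjusted p = 0.074 and 0.0813).

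Scap, the escort of the SREBPs (ENSMUSG00000032485.14, chr9:110333288-110384950, plus strand), was at 90.7, 95.4, 101 and 106 CPM in the VA-free libraries and at 52.3, 64.5, 9.86 and 68.8 CPM in control libraries 1A, 1B, 2A and 2B. Every VA-free library was above every control library, with 2A far below the rest. The log2 fold change was 0.97 ± 0.19 (adjusted p = 0.00639), and 0.60 without 2A (adjusted p = 0.00681). It was 1.49 without 2B, where the call was lost (adjusted p = 0.194).

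Srebf1, which encodes SREBP-1a and SREBP-1c, was at 80.3, 134 and 84.4 CPM in the VA-free mice and at 77.0 and 48.6 CPM in the controls. VA-free mouse 2 stood above the others and control 2A (23.6 CPM) below the other control libraries (70.9 to 78.4 CPM), and the difference of 0.66 ± 0.28 did not pass (adjusted p = 0.105), nor did that of 0.39 without 2A (adjusted p = 0.206). Insig1 and Insig2, the sterol-dependent anchors of SCAP, had log2 fold changes of -0.01 ± 0.12 and -0.14 ± 0.15 (adjusted p = 0.972 and 0.486). Insig1, itself a known SREBP target, ranged from 142 to 171 CPM in the VA-free libraries and from 139 to 177 CPM in the controls. Insig2 was at 281 CPM in control 2A and at 140 to 157 CPM in the other controls, and its sign turned to 0.12 without that library. TPM (pseudocount 1) called Srebf1 (1.25, adjusted p = 0.00782) and Insig1 (0.44, adjusted p = 0.0162) higher.

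Among 11 further genes of SREBP cleavage and of sterol-regulated degradation, 6 rose (54.5%, against 18.9% of all genes) and 1 fell (9.09%, against 22.5%). Mbtps1, the Golgi protease that makes the first cut in SREBPs, rose by 1.03 ± 0.13 (adjusted p = 0.00123). The ubiquitin ligase Rnf145, which acts in the turnover of sterol-regulated proteins, rose by 0.93 ± 0.11 (adjusted p = 0.00101). Pgrmc1, a heme-binding membrane protein, fell by 0.39 ± 0.12 (adjusted p = 0.0315). By TPM its level was not lower, at 174.8 ± 9.5 (SD, n = 3) in VA-free mice and 168.8 ± 1.3 (n = 2) in control mice. The calls of Mbtps1 and Rnf145 held with any mouse or library left out, and Pgrmc1 lost its call in 7 of 11 such fits (-0.48 to -0.32), among them that without control 2A (-0.32).

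Promoter sequence was available from RefSeq (GRCm38.p6) for 24 of the 30 members as 300 bases, from 250 before to 50 after the start that RefSeq gives, and the promoters of Fdps, Fdft1, Sqle, Stard4, Scd1 and Scd2 were not analysed here. That start need not be the Ensembl start of the gene: for Acaca it is that of Acaca-201, downstream of the gene's first annotated base. Nor need it be a start in use. For Insig2 and Srebf1 it is that of Insig2-202 and Srebf1-204, with a mean of 0.0% and 0.1% of their gene's counts. An SRE-like match, TCACNCCA on either strand, the core of the element that SREBPs bind, occurred in 3 of the 24 (12.5%) and in 4.28% of 27025 promoters. A CCAAT box, CCAAT on either strand, occurred in 19 of the 24 (79.2% against 37.92% of all promoters), and GGGCGG on either strand, the letters of a GC box, in 18 (75% against 35.91%). The SRE-like matches were in Hmgcs1 (137 bases before the start), Msmo1 (177) and Srebf2 (162). These 60-base windows are shown because their genes share the match but not the direction, with the SRE-like letters in capitals and the gene's strand read 5′ to 3′; they lie at chr13:119690188-119690247 (Hmgcs1, plus strand), chr8:64733722-64733781 (Msmo1, minus strand) and chr15:82147081-82147140 (Srebf2, plus strand).
Hmgcs1: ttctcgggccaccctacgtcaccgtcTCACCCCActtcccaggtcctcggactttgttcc
Msmo1: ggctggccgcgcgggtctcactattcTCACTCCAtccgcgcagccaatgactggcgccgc
Srebf2: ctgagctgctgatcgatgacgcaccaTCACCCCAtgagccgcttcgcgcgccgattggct
Msmo1 fell, Srebf2 rose and Hmgcs1 was not called. For a pair of genes whose calls held under every alternative, the windows around the CCAAT letters follow, with CCAAT or its reverse complement ATTGG in capitals, at chr11:120824587-120824666 (Fasn, minus strand) and chr3:89454345-89454424 (Pmvk, plus strand).
Fasn: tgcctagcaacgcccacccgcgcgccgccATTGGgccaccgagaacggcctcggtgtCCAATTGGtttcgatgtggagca
Pmvk: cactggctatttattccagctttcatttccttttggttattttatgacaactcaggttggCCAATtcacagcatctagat
Neither window lies directly before the transcript with the most reads: the Pmvk start is that of Pmvk-204 (89454541), while Pmvk-201 begins downstream at 89459118, and the Fasn start is that of Fasn-201, upstream of Fasn-205. The Fasn window holds 3 matches, of which the last 2 overlap, and the Pmvk window holds 1. A match describes the letters of the window and was not tested for binding.

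In fatty acid synthesis, the genes of the committed step and of the chain-building enzyme rose. The other 4 members, Acly, Scd1, Scd2 and Elovl6, gave no call by counts with all libraries. Fasn, fatty acid synthase (ENSMUSG00000025153.9, chr11:120805846-120824547, minus strand), was at 399, 411, 328 and 297 CPM in VA-free libraries 1B, 2A, 3A and 3B. In control libraries 1A, 1B, 2A and 2B it was at 64.1, 132, 33.7 and 152 CPM. Every VA-free library was far above every control library, although the technical replicates of each control mouse differed in ratio by more than the VA-free mice did. By mouse, 408, 412 and 316 CPM stood against 99.0 and 93.0 CPM, which gave a log2 fold change of 1.98 ± 0.16, a 3.94-fold higher level (adjusted p = 0.000336). It was 1.59 without library 2A, 2.53 without 2B and 1.54 with the length trend removed.

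Acaca, acetyl-CoA carboxylase 1, which makes malonyl-CoA for the synthase (ENSMUSG00000020532.18, chr11:84129672-84401651, plus strand), was at 58.6, 49.99 and 27.1 CPM in the VA-free mice and at 18.4 and 17.2 CPM in the controls. VA-free mouse 3 was closer to the controls than to VA-free mice 1 and 2, and its libraries (29.97 and 23.8 CPM) lay only just above the highest control library (23.4 CPM). Acaca rose by 1.35 ± 0.32 on the log2 scale (adjusted p = 0.0137). Without library 2A the log2 fold change was 1.11 and with the length trend removed 0.99, both called. The call was lost with effective transcript length as offset (0.90, adjusted p = 0.061) and without control mouse 2 (1.29).

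Acly, ATP citrate lyase, which supplies cytosolic acetyl-CoA, was at 200, 232 and 215 CPM against 214 and 185 CPM (0.11 ± 0.13, adjusted p = 0.521). Scd1 and Scd2, the stearoyl-CoA desaturases that introduce the double bond of oleate, varied between the VA-free mice. Scd2 was at 303, 470 and 213 CPM against 395 and 305 CPM (-0.09 ± 0.31, adjusted p = 0.844). Scd1 was at 122, 133 and 72.9 CPM against 103 and 106 CPM (0.06 ± 0.24, adjusted p = 0.867). In both genes VA-free mouse 3 was lowest and VA-free mouse 2 highest, and the control mice fell between them. The 2 genes are close paralogs, and reads that fit both are divided by estimate. Elovl6, the elongase that makes stearate from palmitate, was at 36.9, 37.2 and 35.3 CPM against 20.6 and 34.0 CPM, and its difference of 0.42 ± 0.21 did not pass (adjusted p = 0.165). Once the length trend was removed, Acly turned to -0.07 and Scd1 to -0.26, and with TPM (pseudocount 1) Scd2 turned to 0.29. TPM (pseudocount 1) called Acly (0.54, adjusted p = 0.00621) and Elovl6 (0.77, adjusted p = 0.00767) higher, and Elovl6 was also called without control mouse 2 (0.82).

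Of 28 other genes of fatty acid synthesis, elongation and desaturation tested, 4 rose (14.3%, against 18.9% of all genes) and 9 fell (32.1%, against 22.5%), with a median of -0.15. Acacb, the acetyl-CoA carboxylase whose malonyl-CoA restrains fatty acid oxidation, rose by 1.62 ± 0.15 (adjusted p = 0.000472), as did Mlxipl, the carbohydrate-responsive factor ChREBP, by 1.89 ± 0.30 (adjusted p = 0.00291), and Fads3, by 0.53 ± 0.14 (adjusted p = 0.0251). Among the genes that act after the synthase, Tecr, the reductase of the elongation cycle, fell by 1.07 ± 0.11 (adjusted p = 0.000626), Elovl5 by 0.88 ± 0.24 (adjusted p = 0.0251) and Elovl1 by 0.70 ± 0.11 (adjusted p = 0.00293). With a mouse or library left out, Fads3 and Elovl5 lost their calls in 4 of 11 fits each (0.35 to 0.73 and -1.14 to -0.57), Fads3 also without control 2A (0.35), and Acacb in 1, that without 2B (2.27). Elovl1 was at -0.10 and not called with the length trend removed.

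Of 18 genes of sterol uptake, storage and export, 6 rose and 7 fell (33.3% and 38.9%, against 18.9% and 22.5% of all genes; median -0.09). The endocytic lipoprotein receptors Lrp1 and Vldlr rose by 1.95 ± 0.14 (adjusted p = 0.000254) and 0.81 ± 0.15 (adjusted p = 0.00554), and the sterol-binding protein Osbp by 0.59 ± 0.15 (adjusted p = 0.0192). Npc2, which hands cholesterol out of the lysosome, fell by 0.90 ± 0.11 (adjusted p = 0.00113), the HDL receptor Scarb1 by 1.39 ± 0.29 (adjusted p = 0.0092) and the lysosomal lipase Lipa by 0.56 ± 0.12 (adjusted p = 0.00899). With a mouse or library left out Lrp1 ranged from 1.47 without control 2A to 2.70 without 2B, always called. Vldlr and Scarb1 were not called without control 2B (0.67 and -1.05), and Osbp lost its call in 5 of 11 fits with a mouse or library left out (0.41 to 0.79). Scarb1 ranged from -1.85 to -0.73 over such fits. Its level in control 2A was 22.2 CPM, below every VA-free library (32.2 to 42.3 CPM). Of 12 genes of the isoprenoid branches, which use intermediates of the pathway, 2 rose and 2 fell (16.7% each, no more than among all genes; median -0.09). These were the prenylation genes Icmt (1.02 ± 0.15, adjusted p = 0.002), Rabggta (0.56 ± 0.16, adjusted p = 0.0305), Fnta (-0.77 ± 0.19, adjusted p = 0.0153) and Rabggtb (-0.54 ± 0.17, adjusted p = 0.0432). Control 2A carried much of these differences: Fnta was at 395 CPM there and at 138 to 171 CPM in the other control libraries, and Rabggtb at 68.6 CPM there and at 25.6 to 35.1 CPM in the others. Without 2A the log2 fold changes were 0.64 for Icmt and -0.32 for Fnta, both called, and 0.30 for Rabggta and -0.15 for Rabggtb, neither called. Without 2B Icmt (1.56) and Fnta (-1.14) were not called, and Fnta also lost its call without VA-free mouse 1 (-0.77) or control 1A (-0.70).

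Transcript length moved with the result across the members. The 4 members that rose had mean transcript lengths of 3328 (Srebf2), 3800 (Scap), 5132 (Acaca) and 6444 bases (Fasn), above the members' median of 2334 and the median of 2150 over all genes. Among the members that fell, Pmvk (1143 bases), Fdps (1245) and Ebp (1266) were short. Idi1 (2904 bases) and Lss (3436) were longer, and their calls were lost under 9 and 10 alternatives. Acly, Scd1 and Scd2 (3577, 4615 and 5260 bases) gave no call by counts. Of the pathway genes that rose, Mbtps1, Icmt, Acacb and Lrp1 were long as well (4123, 4705, 4775 and 6220 bases). Mlxipl and Rabggta, which also rose, were shorter (1865 and 2045 bases). Among those that fell, Tecr and Elovl1 were short (1094 and 1233 bases) and Npc2 was longer (3203). The part of length in these differences was not tested. With the length trend removed, 4 of the 30 members were higher and 11 lower, 10 of the latter sterol enzymes. Of all genes, 21.3% were then called higher and 13.9% lower, and the median of all genes was 0.183. Relative to that median, 17 of 18 sterol enzymes remained lower, Tm7sf2 being above it. The share of rises among all called genes was 45.6% by counts, 60.5% with the length trend removed and 68.7% by TPM with a pseudocount of 1.

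**Figure D4:**
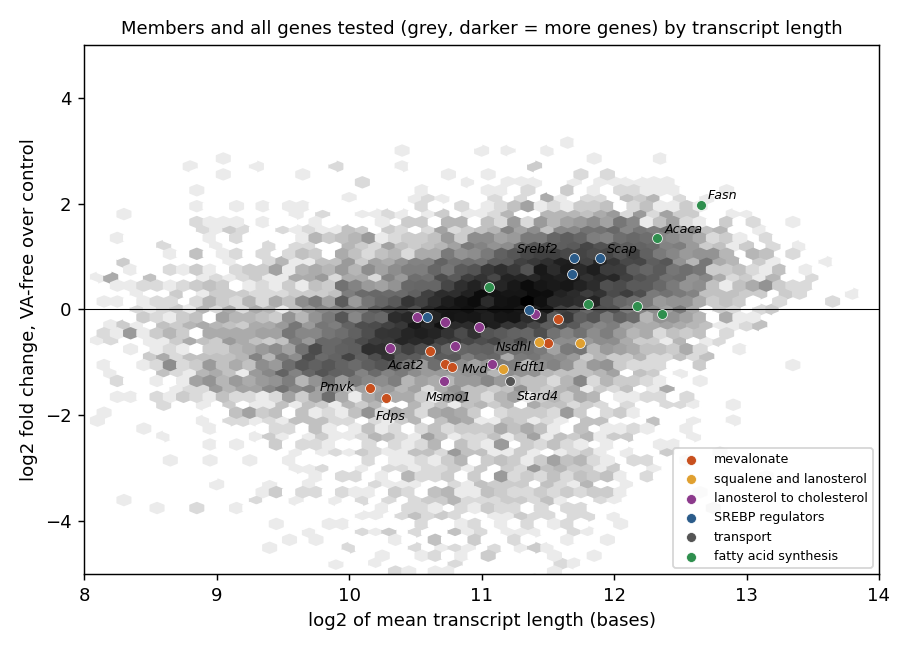
Log2 fold change of the members (coloured by segment) and of all genes tested (grey) against log2 mean transcript length. The grey cloud slopes upward by 0.35 per doubling of length. Fdps, Pmvk, Msmo1, Fdft1 and Stard4 lie below its dense part and Fasn and Acaca at its upper right.

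On the per-length scale (TPM, a level), Fdps was the most abundant member in control mice, at 263 ± 1.24 (SD, n = 2), followed by Insig2 at 171 ± 22.2 and Msmo1 at 114 ± 8.48. The members from rank 4 to rank 12, between Scd2 at 89.9 ± 8.83 and Acly at 76.5 ± 5.13, did not differ from their neighbours beyond their spread. Tm7sf2 (5.10 ± 2.15) and Acaca (5.55 ± 0.817) were lowest. In VA-free mice Insig2 (188 ± 4.95, n = 3) and Srebf2 (184 ± 21.4) came first and differed by less than their spread. Fdps stood at 111 ± 35.5 TPM, level with Cyp51 (111 ± 19.3) and Acly (112 ± 8.01). Fasn moved from rank 22 in control mice (24.6 ± 2.31) to rank 9 (90.01 ± 13.5), and Msmo1 from rank 3 to rank 13 (59.8 ± 11.02).

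**Figure D5:**
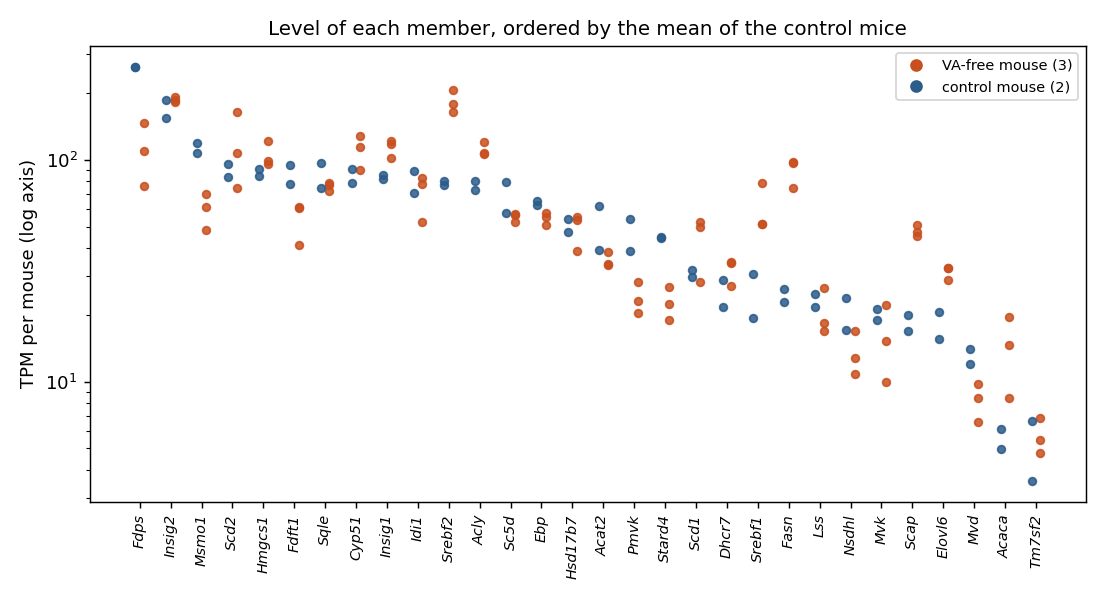
TPM of each member in every mouse on a log axis, ordered by the mean of the control mice. Fdps (263 in control mice) and Tm7sf2 (5.10) mark the ends of the order, and the VA-free points stand above the control points for Srebf2, Srebf1, Fasn, Scap and Acaca, among others.

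The transcripts that held the reads differed between the diets for some members and in control 2A for several. Pmvk-201 took 69.6 to 81.4% of the counts of Pmvk in the VA-free libraries and 87.3 to 95.9% in the controls. Insig2-201 took 73.5 to 74.4% in the VA-free libraries and 54.9 to 69.4% in the controls. The ranges over libraries, technical replicates included, did not overlap for either. Transcripts of other members were also apart, such as Hsd17b7-201 (74.3 to 78.0% and 65.1 to 70.3%) and Lss-201 (87.0 to 91.0% and 91.2 to 94.4%). Tm7sf2-201 took 5.9 to 46.3% and 54.2 to 66.1%, on the few counts of that gene, and Tm7sf2 shares 532 exon bases with Vps51 on the same strand. In control 2A, Srebf1-203, whose first exon lies downstream of those of the other main isoforms, took 72.2% of Srebf1, against 6.7 to 17.0% in the other 7 libraries. Srebf2-203 took 0.0% there and 45.9 to 58.8% elsewhere, while the retained-intron transcripts Srebf2-205, Acaca-207 and Fasn-203 reached 50.9%, 31.8% and 22.7%, each its highest share in any library. These shares are estimates from short reads and were not tested. How many of all transcripts have shares apart in this way was not counted. In gene levels (CPM), 63.3% of all genes tested were apart between the mice of the diets.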

How the data were processed

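Estimated counts were made by the authors with Kallisto 0.46.2 from 75 bp single-end reads of SMART-Seq v4 and Nextera XT libraries, against the Ensembl 96 transcripts of GRCm38, and were deposited raw for each transcript in each library. TPM values, also deposited, are scaled for effective length and keep no depth. The deposited transcript and effective lengths, another measure, were used for length corrections.

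Counts were summed by gene, then over the libraries of each mouse, and rounded. Between 0.647% and 0.756% of a library's counts lay on transcripts without a gene and were left out. The contrast of VA-free with control mice was fitted in edgeR 4.0.16 (R 4.3.3) with TMM factors, filterByExpr and the quasi-likelihood test, and p-values were adjusted over 17997 genes (Benjamini-Hochberg, threshold 0.05). The SE is the log2 fold change divided by the square root of F. The depth was 44831232 to 88650428 counts per library, and counting error is larger for members with few counts, such as Tm7sf2. Alternatives were other normalizations, filters, tools (DESeq2 1.42.0, limma 3.58.1), length corrections, TPM with a pseudocount of 1 or 0.1, a replicate block, and each mouse or library left out. In a simulation with 3 and 2 mice and 17997 genes, of which 200 were changed, the edgeR fit recovered 83, among them 52 of the 100 changed 4-fold, and called 8 unchanged genes. The simulated rises and falls were equal in number and had no length trend. In the data, 18.9% of genes were called higher and 22.5% lower, with such a trend. The recovery is therefore no estimate for these data.

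The members and gene lists were chosen with earlier results of these data known. Named were all members, up to 3 higher and 3 lower called genes of each pathway list with the largest mean CPM, and per marker list the 2 most abundant and those at 0. 1 gene that this rule names is not reported here.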

Additional observations from a re-analysis of the deposited data

Results flagged for a closer look

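Within each diet's 4 libraries, 60 groups of values (30 members in 2 diets) were examined for a single library far from the rest, by the gap to its nearest neighbour over the group's whole range. A gap above Dixon's critical value for 4 values was found in 9 groups. About 1 in 20 groups would show one by chance, and technical replicates of a mouse are not independent. Control library 2A was the library that stood apart in 7 of the 9. It was high for Acat2 (gap 0.84, at 120 CPM against 42.9 to 55.2 CPM), Sqle (0.946, 264 against 144 to 150 CPM), Ebp (0.983, 80.6 against 52.1 to 52.6 CPM), Sc5d (0.85, 138 against 65.2 to 76.1 CPM) and Insig2 (0.882, 281 against 140 to 157 CPM). It was low for Dhcr7 (0.845, 16.5 against 34.7 to 38.0 CPM) and Srebf1 (0.863, 23.6 against 70.9 to 78.4 CPM). VA-free library 2A, from another mouse, was high for both SREBP genes: Srebf1 (0.852, 133 against 78.5 to 86.6 CPM) and Srebf2 (0.863, 406 against 319 to 331 CPM).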

How the results depend on the processing

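The count of members called higher was 4 in the reported analysis. It was 2 with the 8 libraries taken as separate samples in edgeR, 8 with TPM at a pseudocount of 1 or 0.1, and 2 to 5 when a mouse or library was left out. It was 2 without control 2B, where Srebf2 and Scap lost their call. Of all genes, 18.9% were called higher and 22.5% lower in the reported analysis. These shares were 16.3% and 22.6% with the 8 libraries in edgeR and 9.15% and 15.1% without control 2B. With TPM they were 32.2% and 14.7% (pseudocount 1) and 32.6% and 14.6% (pseudocount 0.1). The count called lower, 13, was 5 and 6 with TPM at the pseudocounts 1 and 0.1 and 9 to 14 with a mouse or library left out, and the lowest count was again that without control 2B. The median over the members, -0.29, was 0.04 with TPM at either pseudocount (0.192 and 0.354 over all genes) and -0.43 to -0.21 in the leave-outs. The 12 sterol enzymes called lower, a count chosen after seeing the data, were 4 and 5 with TPM and 8 to 13 in the leave-outs, and 8 with the length trend removed and control 2A left out together, an alternative also added after seeing the data. The alternatives for the pathway genes were likewise computed after seeing the data. No sterol enzyme was called higher under any alternative. The SRE-like count of 3 promoters was 1 with the longer motif TCACNCCAC.

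The sign turned for 9 members that were not called by counts. With the length trend removed the values were 0.35 for Tm7sf2, 0.14 for Dhcr7, 0.02 for Insig1, 0.32 for Insig2, -0.07 for Acly and -0.26 for Scd1, and with control 2A also left out 0.27 for Tm7sf2, 0.56 for Insig2, -0.09 for Acly and -0.19 for Scd1. With TPM (pseudocount 1, then 0.1) they were 0.26 and 0.26 for Hmgcs1, 0.37 and 0.37 for Cyp51, 0.17 and 0.20 for Tm7sf2, 0.34 and 0.35 for Dhcr7, 0.44 and 0.44 for Insig1, 0.14 and 0.14 for Insig2, and 0.29 and 0.30 for Scd2. Scd1 was at -0.02 with a filter at a mean of 10 CPM and at -0.08 with 8 libraries in DESeq2 or edgeR, and Insig1 at 0.01 with effective length as offset. With a mouse or library left out the values ranged from -0.25 to 0.09 for Cyp51, -0.43 to 0.20 for Tm7sf2, -0.48 to 0.04 for Dhcr7, -0.11 to 0.10 for Insig1, -0.38 to 0.12 for Insig2, -0.01 to 0.24 for Acly, -0.10 to 0.28 for Scd1 and -0.44 to 0.27 for Scd2. Of these turned values, those of Insig1 with TPM at either pseudocount (adjusted p = 0.0162 and 0.0167) and of Insig2 with the length trend removed and 2A left out (adjusted p = 0.00862) passed the threshold. Calls were gained without a turn by Mvk under 7 alternatives, Elovl6 4, Hsd17b7 and Srebf1 3 each, Acly 2 and Dhcr7 1. The cause was not tested.

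The replicate numbers did not pair the mice (correlations of -0.05 and 0.024 between same-numbered mice). With them as a replicate block 4 members were higher and 11 lower, while 13% of all genes were called higher and 16.1% lower. Idi1 and Lss were no longer called there, and Insig1 was at 0.05 and Scd2 at 0.12. VA-free mice 1 and 2 have 1 library, so leaving out that library is leaving out the mouse. With 1 control mouse left, its spread is assumed to be that of the VA-free mice.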
